A study of Mus musculus with 12 samples.

Results

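The 10 genes described here run the passage of a cell from G1 into S phase, and they were read in sorted mouse skin cells on 12 microarrays. They were chosen by name: D-type cyclins (Ccnd1, Ccnd2, Ccnd3), E-type cyclins (Ccne1, Ccne2), activating E2F factors (E2f1, E2f2) and pocket proteins (Rb1, Rbl1, Rbl2). All 10 were found among the 34763 gene names of the array, and where a gene has several probes, the one brightest on average was taken. Their main features were higher Ccnd2 and E2f1 in interfollicular epidermal cells than in hair follicle stem cells (HFSCs), and higher E2f1 and Rbl1 in all 4 pairs of HFSCs after hair plucking, which did not pass the test over all genes.

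D-type cyclins bind CDK4 and CDK6, and E-type cyclins bind CDK2; these kinases phosphorylate the pocket proteins. Unphosphorylated RB, the product of Rb1, holds activating E2F factors in check, while p107 (Rbl1) and p130 (Rbl2) bind the repressing E2F factors and, in resting cells, the MuvB proteins of the DREAM complex. Once released, E2F factors switch on genes for DNA replication, and E2f1, Ccne1 and Rbl1 are themselves known E2F targets. HFSCs of the bulge are known to rest for most of the hair cycle, and pulling hairs out starts a new round of growth.

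The study concerns hair follicle aging and the transmembrane collagen COL17A1, a part of the hemidesmosomes that hold basal keratinocytes in place. Cells were sorted by flow cytometry into HFSCs (high CD34, high ITGA6, no SCA1), interfollicular epidermal cells (IFE, high ITGA6 and SCA1) or left as total epidermis. Young mice were 8 weeks old and aged mice at least 22 months, both of strain C57BL/6. Control mice were wild type, C57BL/6, and the Col17a1 conditional knockout (cKO) mice carried a deletion made from the K14 promoter, active in basal keratinocytes; the labels give no strain for the cKO cells. Control and cKO mice were 12 weeks old, and both had been injected with tamoxifen, 2 mg for 5 days. HFSCs of the 4 mouse types came unplucked and 3 days after plucking by hand; young and aged mice also gave IFE and total epidermis. Each of the 12 groups is 1 array. The labels do not say whether samples came from separate or pooled animals, so the p-values reflect the spread between these 12 samples alone, and that spread may be technical.

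Where a probe sits decides what it reads. Of the 3 sequences printed here, the last is a window before a start site and was not measured by any array. Each probe has 60 bases. Coordinates on mm9 are those of the array files. The Ccnd2 probe lies at chr6:127098696-127098755 (minus strand), 609 bases into its transcript, and showed the clearest difference between cell populations. The Ccne1 probe shown lies at chr7:38885574-38885633 (minus strand), 741 bases into its transcript; it is the dimmer of 2 Ccne1 probes and was well above background in plucked but not unplucked young, aged and control HFSCs, and in neither cKO sample. The third is the RefSeq window before the start site of Rbl1 (GRCm38.p6, chr2:157204535-157204784, minus strand), with an E2F site in capitals. Written 5′ to 3′, they read:
Ccnd2 probe: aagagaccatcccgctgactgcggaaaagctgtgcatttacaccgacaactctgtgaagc
Ccne1 dimmer probe: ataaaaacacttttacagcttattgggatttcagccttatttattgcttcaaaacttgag
Rbl1 upstream window: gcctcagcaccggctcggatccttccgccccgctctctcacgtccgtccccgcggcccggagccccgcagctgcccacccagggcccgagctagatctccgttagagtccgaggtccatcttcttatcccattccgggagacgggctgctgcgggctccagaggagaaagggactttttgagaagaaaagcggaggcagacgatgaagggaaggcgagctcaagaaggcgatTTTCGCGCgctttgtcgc

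The capitals mark TTTCGCGC, 1 of 4 E2F forms searched on both strands (TTTCCCGC, TTTGGCGC, TTTCGCGC and TTTGCCGC), starting 18 bases before the start site. RefSeq windows of 300 bases were matched for 6 of the 10 genes (Ccnd3, Ccne1, E2f1, E2f2, Rbl1, Rbl2), and the windows of 2 of them held a form: Rbl1, and E2f2 with TTTGGCGC at position 39 after a start site. Of all 32851 windows, 2.26% held a form, and of all genes with a window 2.6% did. A RefSeq start site need not be the main one of a gene. The E2f1 window may lie within the coding part of its gene, so the lack of a form there says nothing of its promoter. A match is a run of letters and shows no binding.

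Levels below are log2 intensities relative to the 75th percentile of the array, so 0 is the level of that percentile and 1 unit is a 2-fold difference. Spots well above background made up 49.65% to 64.95% of an array, least in unplucked cKO HFSCs. That array and the unplucked control HFSCs also stood somewhat apart: their median correlations with the other arrays were 0.893 and 0.888, against 0.907 to 0.93 for the rest. The mean level of 7 bulge markers was 5.53 to 6.17 in unplucked and 5.04 to 5.63 in plucked HFSCs, 1.73 to 1.94 in total epidermis and -1.64 to -0.8 in IFE. Krt15 among them did not separate the populations, at 6.36 and 6.14 in young and aged IFE and 5.80 to 6.97 in HFSCs. Young and aged cells shared slide 1, on separate rows, and control and cKO cells shared slide 2. Age therefore cannot be told apart from slide row, nor, within a slide, cell population, plucking or loss of Col17a1 from slide column. Of the 10 genes, 9 were well above background on every array, and Ccne2 on 3 plucked HFSC arrays only (young, control and cKO).

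**Figure D1:**
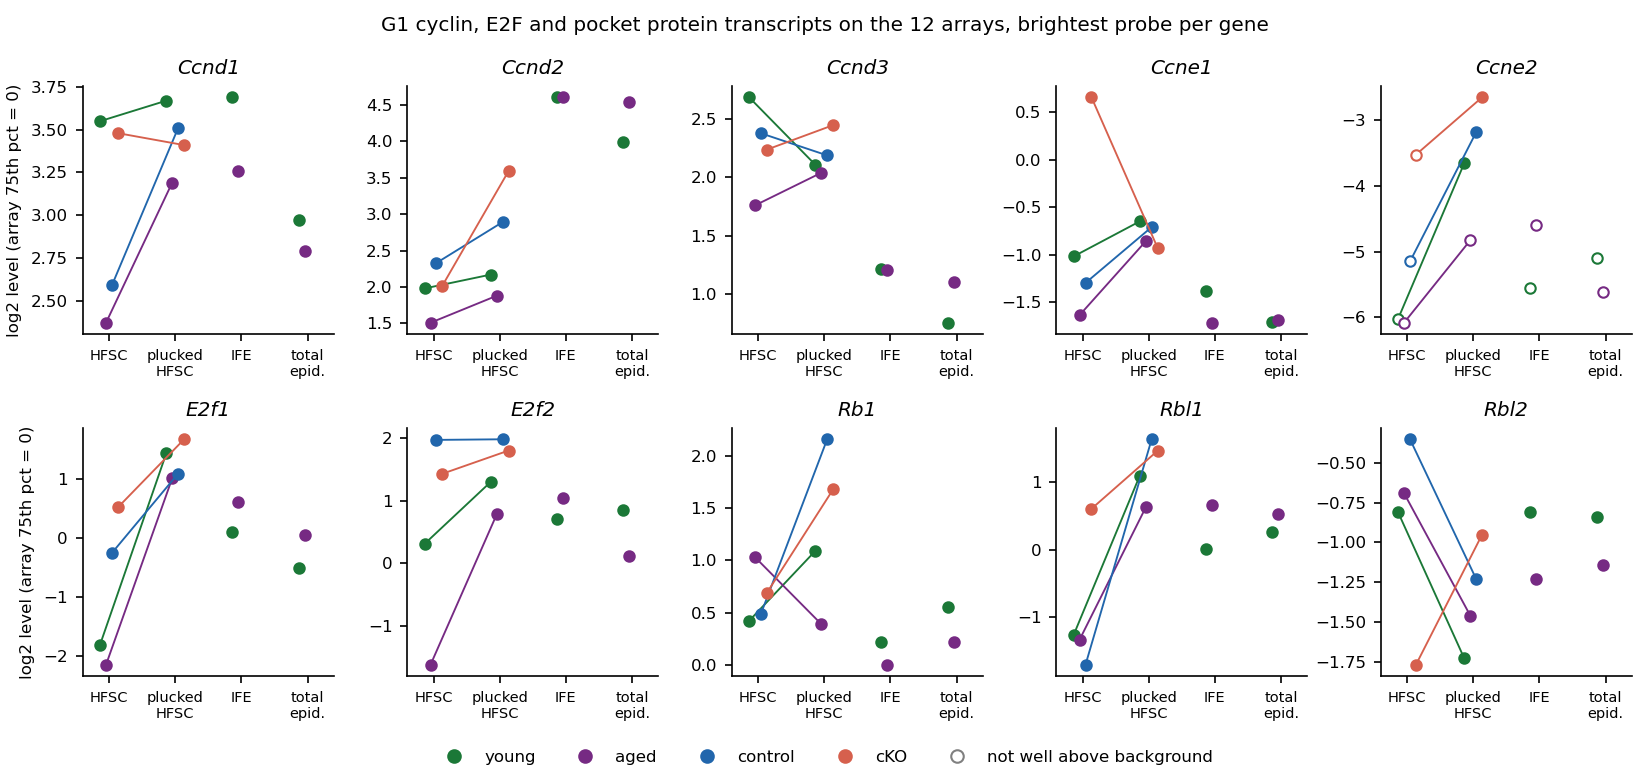
Level of each of the 10 genes on the 12 arrays (log2 intensity, 0 is the array's 75th percentile; each panel has its own scale), by cell population on the x axis and mouse type by colour, with lines joining unplucked and plucked HFSCs of a mouse type. E2f1 and Rbl1 lie higher on all 4 plucked than on all 4 unplucked HFSC arrays, and Ccnd2 is highest in IFE and total epidermis.

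The first comparison asks which of the genes moved in HFSCs 3 days after plucking. E2f1 and Rbl1 were higher in every pair, by about 4-fold in the fit, Ccne2 was detected after plucking only, and the D-type cyclins, Rb1 and Rbl2 had small differences or mixed directions. None of the 10 passed the threshold (limma, adjusted p under 0.05 over 25428 genes), where 0.499% of all genes did. Their median difference was 0.67, against -0.06 for all genes. An unadjusted p under 0.05 (limma) was found for 3 of them (Ccne2, E2f1 and Rbl1), and for 4463 of the 25428 genes. Of these 3, Ccne2 entered the fit through plucked arrays alone and its unplucked values were below background, so its p-value lends no support.

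E2f1 encodes an activating E2F factor. Before plucking its level was -1.80 (young), -2.14 (aged), -0.25 (control) and 0.52 (cKO), and after plucking 1.43, 1.01, 1.09 and 1.67, in the same order. The groups did not overlap: the lowest plucked array (aged, 1.01) lay above the highest unplucked one (cKO, 0.52). The plucked cells were close together (mean 1.30 ± 0.31, SD, n = 4) and the unplucked ones were not (-0.92 ± 1.26), with both arrays of slide 1 below both of slide 2. The difference in the fit was 2.21 ± 0.48 (SE; 4.64-fold; limma, adjusted p = 0.119), and it was 3.19 within slide 1 and 1.24 within slide 2. Without the cKO pair it was 2.57.

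Rbl1 encodes p107, the pocket protein whose gene follows E2F activity. At its brightest probe the level was -1.26 in young, -1.33 in aged, -1.70 in control and 0.61 in cKO cells before plucking, and 1.10, 0.63, 1.64 and 1.47 after it. The highest unplucked array, again cKO, lay just under the lowest plucked one, aged, at 0.61 against 0.63. In the fit Rbl1 differed by 2.13 ± 0.45 (4.38-fold; limma, adjusted p = 0.114), with 2.16 within slide 1 and 2.10 within slide 2. Averaging the probes of a gene carried Rbl1 past the threshold (limma, adjusted p = 0.0371, with 0.0371 to 0.445 over all alternatives), as did 2 others of the alternatives. For E2f1 only normexp background correction with quantile normalization did so (adjusted p = 0.0481, with 0.0481 to 0.41 over all alternatives).

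E2f1 and Rbl1 were thus 2 of 10 genes with all plucked arrays above all unplucked ones, where 6.28% of all genes showed that; none of the 10 had all plucked arrays below, where 4.42% did. Within pairs, measured levels at least 2-fold higher were found for 3 genes in young cells (E2f1, Rbl1 and Ccne2; 15% of all genes), 3 in aged cells (E2f1, E2f2 and Rbl1; 15.7%), 4 in control cells (E2f1, Ccne2, Rb1 and Rbl1; 21.1%) and 2 in cKO cells (E2f1 and Ccnd2; 22.4%). These counts take an array below background at its measured level; for Ccne2 in young cells the bound is only 1.03-fold. The only gene at least 2-fold lower was Ccne1 in cKO cells, where 17% of all genes were.

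The second activating factor, E2f2, behaved less evenly. Its level was 0.31, -1.62, 1.97 and 1.43 in unplucked young, aged, control and cKO HFSCs, and 1.30, 0.78, 1.98 and 1.80 in plucked ones. All 4 pairs were higher after plucking, by 2.40 in aged and by 0.01 in control cells, and the groups overlapped. The unplucked aged array was the lowest of all 12, and the mean difference was 0.94 ± 0.45 (limma, adjusted p = 0.358).

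**Figure D2:**
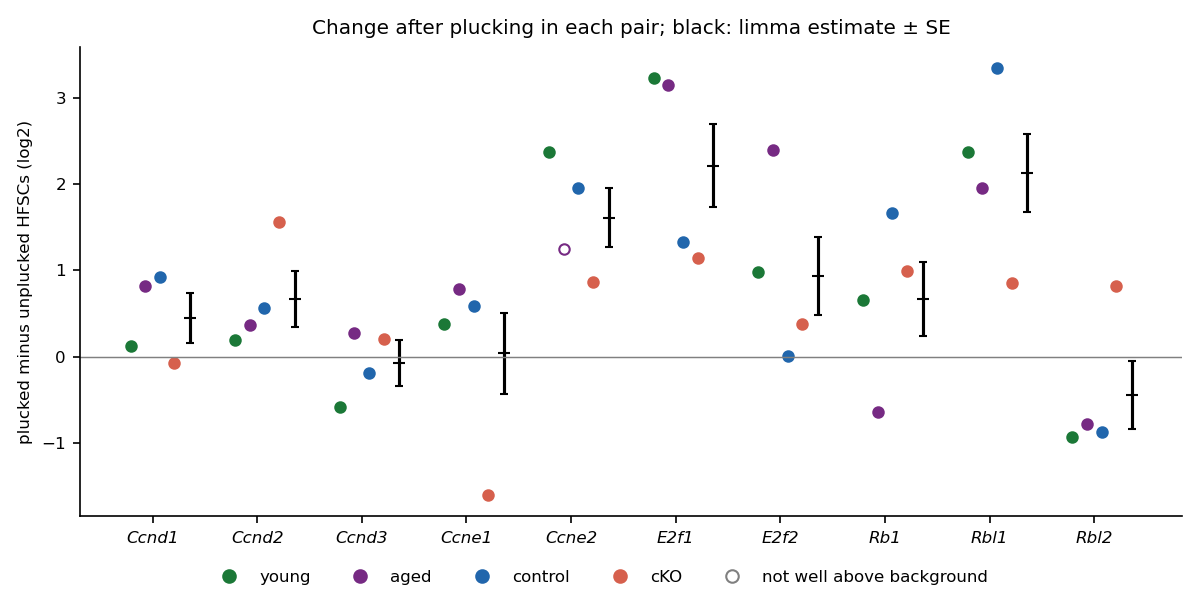
Plucked minus unplucked HFSCs for each gene (y axis, log2 difference), with 1 point per mouse type and the limma estimate with its SE in black; the open point is a pair with neither array well above background. E2f1 and Rbl1 are above 0 in all 4 pairs with estimates of 2.21 and 2.13, while Ccnd3 and Ccne1 are spread around 0.

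Ccne2, the second E-type cyclin, was near the lower limit of the array. Its measured level was -6.02, -6.08, -5.15 and -3.53 in unplucked young, aged, control and cKO cells, none of them well above background, and -3.66, -4.83, -3.19 and -2.66 after plucking. Bounds count each dim array at the lowest signal that was well above background there, or at its own signal if higher. By these, plucked cells stood at least 3.68-fold above unplucked ones in control, 1.27-fold in cKO and 1.03-fold in young cells. No bound can be given for aged cells, where neither array was well above background. The fitted adjusted p was 0.114 (limma), with Ccne2 in the fit through plucked arrays alone.

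Ccne1 has a pair of probes, and their values differed. The brightest lies 1874 bases into the transcript, and only 24 of its 60 bases are placed by the file's coordinates (chr7:38882937-38882960, mm9). It read -1.02, -1.64, -1.30 and 0.66 in unplucked young, aged, control and cKO cells and -0.65, -0.86, -0.71 and -0.93 in plucked ones. The unplucked cKO array was the highest of all 12 there, and the fitted difference was 0.04 ± 0.47 (limma, adjusted p = 0.976), or 0.58 without the cKO pair.

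At the dimmer Ccne1 probe, printed above, no unplucked array was well above background (-5.90, -6.01, -6.29 and -5.22). After plucking it read 0.06 in young, -1.66 in aged and 0.46 in control cells, all well above background, but -4.96 in cKO cells, which was not. Plucked levels were at least 13.5-fold higher in young, 4.22-fold in aged and 46-fold in control cells, and no fold can be given for cKO cells. Over all 4 pairs no bound holds either, since plucked cKO cells were not well above background. With every probe tested on its own the adjusted p was 0.178 (limma, 38675 probes). The dimmer probe entered that test through plucked arrays alone. Cyclin E1 is the partner of CDK2 at the start of S phase. Which of the probes reads its transcript more faithfully was not tested.

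Rbl1 also has 2 probes, annotated to different transcripts. The brightest, at chr2:157000761-157000820 (mm9, minus strand), belongs to the transcript variant NM_001139516, and the other, at chr2:156972143-156972202, to NM_011249. The second probe read -1.59, -2.81, -0.77 and -2.91 in unplucked young, aged, control and cKO cells, and 0.21, -0.10, 1.00 and 1.20 in plucked ones. Its groups did not overlap either, and its difference was 2.60 ± 0.48 (6.06-fold; limma, adjusted p = 0.11 over all probes). The probes disagreed in unplucked cKO cells, which were the highest unplucked array at the first probe and the lowest at the second.

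**Figure D3:**
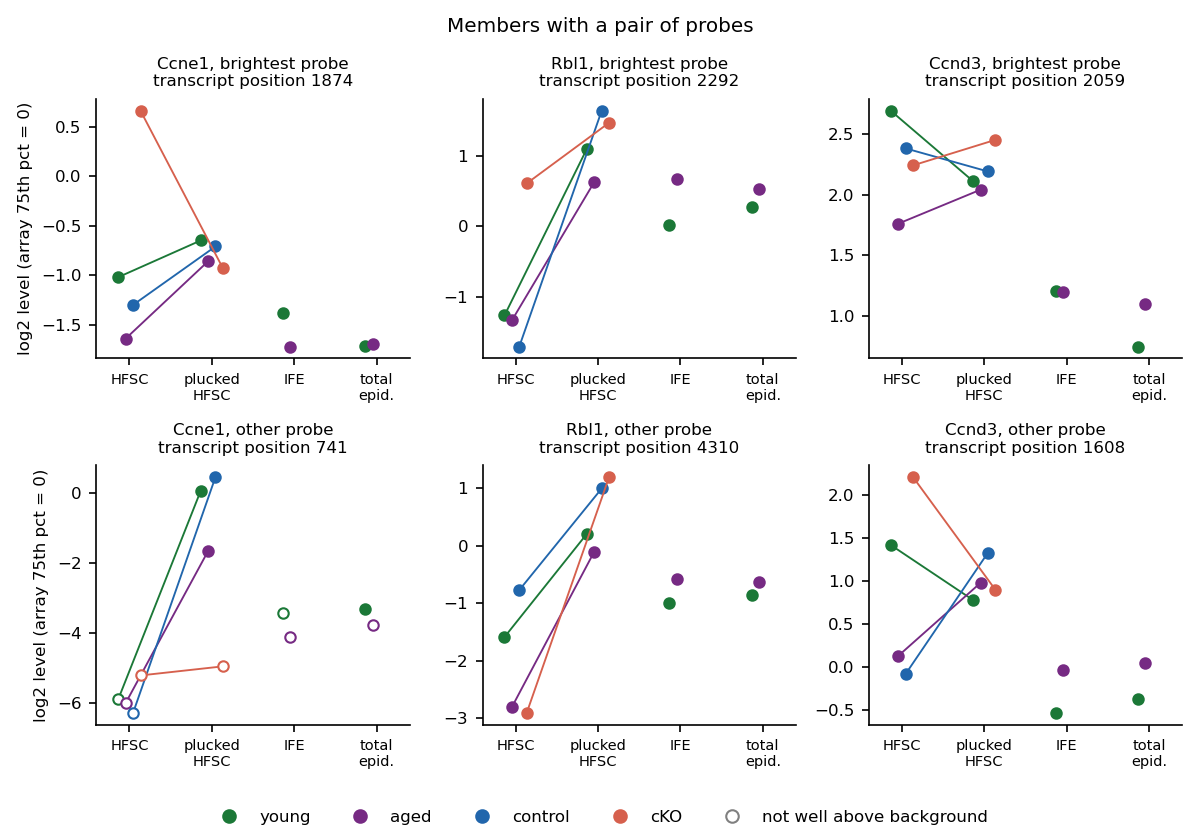
Levels (log2 intensity, 0 is the array's 75th percentile) of the 3 genes with 2 probes, brightest probe above and other probe below, by cell population and mouse type; open points are not well above background, and each panel has its own scale. The dimmer Ccne1 probe is well above background in plucked young, aged and control HFSCs but not in plucked cKO HFSCs, while both Rbl1 probes are higher in all 4 plucked samples.

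Among D-type cyclins, none separated plucked from unplucked HFSCs. Ccnd1, a frequent target of growth factor signalling, read 3.55, 2.37, 2.59 and 3.48 in unplucked young, aged, control and cKO cells, and 3.67, 3.19, 3.51 and 3.41 in plucked ones. The aged and control arrays were low before plucking, and the 4 plucked arrays lay within 3.19 to 3.67, so that the groups overlapped (0.45 ± 0.29; limma, adjusted p = 0.474). Ccnd2 was higher in all 4 pairs, from 1.98, 1.51, 2.33 and 2.02 to 2.17, 1.88, 2.89 and 3.59, most of all in cKO cells by 1.56 (0.67 ± 0.32; limma, adjusted p = 0.354). Without the cKO pair the Ccnd2 difference was 0.37. Ccnd3 ranged from 1.76 to 2.69 before and from 2.04 to 2.45 after plucking, with 2 pairs up and 2 down (-0.07 ± 0.27; limma, adjusted p = 0.916). Its second probe gave 0.08 ± 0.54.

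Rb1, which encodes the RB protein itself, was averaged over 10 spots of its probe. It read 0.42, 1.03, 0.49 and 0.69 before and 1.09, 0.39, 2.16 and 1.68 after plucking in young, aged, control and cKO cells. Aged cells were lower after plucking and the other 3 pairs higher, and the groups overlapped (0.67 ± 0.43; limma, adjusted p = 0.468). Rbl2, which encodes p130, the pocket protein of resting cells, went from -0.81, -0.69, -0.35 and -1.77 to -1.73, -1.46, -1.23 and -0.95. It was lower after plucking in young, aged and control cells, by 0.78 to 0.93, and higher in cKO cells, which had been the lowest of the 12 arrays before plucking (-0.44 ± 0.39; limma, adjusted p = 0.591).

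The rest of the pathway was counted from 6 lists with 65 genes. Of 9 kinases and activators of G1, 8 had a positive difference (median 1.48). Mycn, a MYC family factor, was the single one to rise (2.70 ± 0.22; 6.51-fold; limma, adjusted p = 0.0448), while the values were 3.20 for Skp2, which targets p27 for degradation, and -1.12 for Myc. No CDK inhibitor of 7 passed (median 0.21). They ran from 1.96 for Cdkn2c to -2.75 for Cdkn1c (limma, adjusted p = 0.0761). Cdkn1c was well above background on 3 unplucked and no plucked arrays, so its value rests in part on signals below background. No gene of 8 other E2F and DP factors passed (median 0.54), from 0.00 for E2f6 to E2f8, an atypical repressing E2F that was at least 26.1-fold higher and well above background on the 4 plucked arrays only (limma, adjusted p = 0.0511). Among 6 MuvB partners of the pocket proteins none passed (median 0.77, from -0.79 for Lin52 to 2.41 for Mybl2).

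Genes that E2F factors are known to switch on had a higher median than the 10 genes themselves. All 26 S-phase targets had a positive difference, with a median of 2.08 and a lowest value of 0.69 (Chek1), and 2 of them rose past the threshold. These were Orc1 of the origin recognition complex, at least 15.6-fold higher (limma, adjusted p = 0.0398), and the replication factor Mcm10, at least 9.99-fold higher (adjusted p = 0.0448), both well above background on the 4 plucked arrays only. Both entered the fit through the plucked arrays alone, and their unplucked values in it were below background. Their adjusted p-values therefore add no support beyond these bounds. All 9 genes of G2 and mitosis were positive as well (median 3.81), from 2.27 for Plk1 to 5.79 for Ccnb1, and Mki67, the proliferation marker Ki-67, rose by 3.81 ± 0.40 (14-fold; limma, adjusted p = 0.0448). In bulk samples, more cycling cells and more of these transcripts per cell cannot be told apart.

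**Figure D4:**
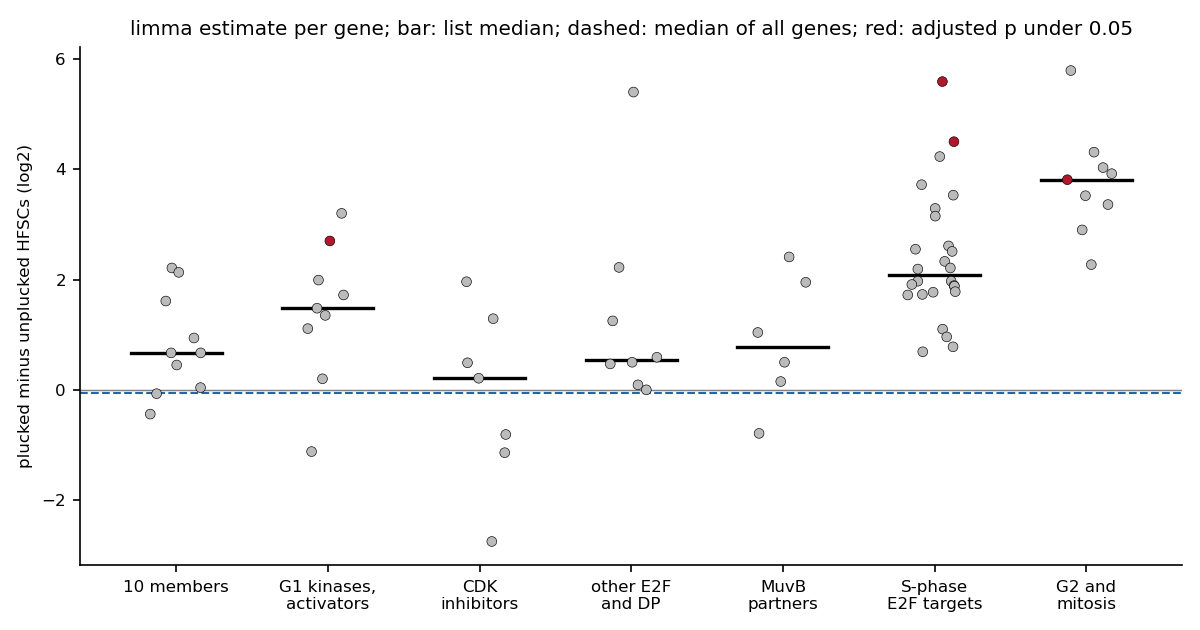
Plucked minus unplucked HFSCs (y axis, log2 difference estimated by limma) for each gene of the 10 and of the 6 pathway lists; bars are list medians, the dashed line is the median of all genes and red points passed the adjusted threshold. The medians are 0.67 for the 10 genes, 2.08 for S-phase targets and 3.81 for G2 and mitosis.

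Next, aged HFSCs were set against young ones. Of the 10 genes, 9 were lower on average in aged cells, with a median of -0.40 against 0.03 for all genes, but none passed the threshold (limma, 0% of 25428 genes, with 1227 at an unadjusted p under 0.05). In the unplucked pair, E2f2 was lower by 1.93 on the log2 scale and Ccnd1 by 1.18; these were the 2 genes at least 2-fold lower at the brightest probe, where 11.5% of all genes were. In the plucked pair the figures shrank to -0.51 for E2f2 and -0.48 for Ccnd1, and only Ccne2 had a measured level at least 2-fold lower at the brightest probe (-1.17), where 10.1% of all genes were. Aged plucked cells were not well above background for Ccne2, so that young cells were at least 1.05-fold higher. Other probes were past 2-fold too: the dimmer Ccne1 probe in the plucked pair (-1.73), and the second probes of Ccnd3 (-1.29) and Rbl1 (-1.22) in the unplucked pair. The fitted differences were -1.22 ± 0.64 for E2f2 and -0.83 ± 0.41 for Ccnd1 (limma, adjusted p = 0.932 for each). E2f1 differed by -0.34 and -0.43 in the unplucked and plucked pairs. Rbl2 was the exception, at 0.12 and 0.27, though under normexp with quantile normalization it was -0.07 in the fit and Rb1 turned to 0.02. None of the 65 pathway genes passed either; the median was -0.36 for S-phase targets and -0.56 for G2 and mitosis.

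The third comparison concerned loss of Col17a1. None of the 10 genes differed between cKO and control HFSCs past the threshold (limma, 0% of all genes, with 1646 at an unadjusted p under 0.05). In the unplucked pair Rbl1 at its brightest probe (2.31) and Ccne1 at its brightest probe (1.96) were at least 2-fold higher in cKO cells, where 17.7% of all genes were, and Rbl2 was at least 2-fold lower (-1.41), where 20.9% were. In the plucked pair no gene of the 10 was 2-fold apart at its brightest probe in either direction, where 23.6% of all genes were. The dimmer Ccne1 probe, however, was at least 27.6-fold lower in plucked cKO than in plucked control cells (0.46 in control; -4.96 in cKO, not well above background). In the unplucked pair that probe was not well above background in either sample, the second Rbl1 probe went the other way from the first (-2.14), and the second Ccnd3 probe was higher in cKO cells (2.29, against -0.14 at the brightest). The unplucked cKO array also had the fewest spots above background, and the part of that in these values was not tested. No pathway gene of the 65 passed, with medians of 0.32 for S-phase targets and 1.10 for G2 and mitosis against -0.01 for all genes.

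Whether the plucking response itself differed was fitted for aged and cKO cells together against their own controls. No gene passed (limma, 0% of 25428 genes, the smallest adjusted p being 0.999, while 1146 genes had an unadjusted p under 0.05). The largest differences among the 10 were -1.44 ± 0.71 for Rbl1 at its brightest probe and -1.10 ± 0.54 for Ccne2 (adjusted p = 0.999 for each). The second Rbl1 probe went the other way. Its plucking differences were 2.71 in aged and 4.12 in cKO cells, against 1.80 in young and 1.77 in control cells. With probes averaged the Rbl1 estimate was 0.09. The Ccne2 value rests in part on signals below background. None of the 65 pathway genes passed; the median was -0.76 for S-phase targets, with 22 of 26 negative, and -1.66 for G2 and mitosis, with 8 of 9 negative, against 0.04 for all genes. At the brightest probe, Ccnd1, Ccne1 and Rbl2 each had the same sign in the young, aged and control pairs and the other in the cKO pair. Of all genes, 11.2% did so, and for Ccnd1 the cKO difference was only -0.07.

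The fourth comparison placed HFSCs beside other epidermal cells of the same mouse types, over the 6 unplucked young and aged arrays. Ccnd2 and E2f1 were higher in IFE than in HFSCs, and Ccnd2 was also higher in total epidermis. Of the 9 genes tested, 2 passed in IFE, where 4.73% of all genes did, and 1 in total epidermis, where 3.89% did. Ccne2 was not well above background on these arrays and was not tested.

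Ccnd2 was the clearest of all. It read 1.98 and 1.51 in young and aged HFSCs, 4.60 and 4.60 in IFE, and 3.99 and 4.53 in total epidermis. Both epidermal populations were above all 8 HFSC arrays, of which the highest was plucked cKO at 3.59. How many of all genes separate in this way was not counted. The difference was 2.86 ± 0.35 in IFE (7.25-fold; limma, adjusted p = 0.0262) and 2.51 ± 0.35 in total epidermis (5.71-fold; adjusted p = 0.04). The call in total epidermis was lost without the filter on dim genes (adjusted p = 0.00814 to 0.0747 over the alternatives).

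Ccnd3 ran the opposite way. At 2.69 and 1.76 in young and aged HFSCs, it was 1.21 and 1.20 in IFE and 0.75 and 1.10 in total epidermis. At this brightest probe all 4 epidermal arrays were below all 8 HFSC arrays. The share of all genes with such a separation was not counted. The differences of -1.02 ± 0.40 and -1.30 ± 0.40 did not pass (limma, adjusted p = 0.264 and 0.175). At the second Ccnd3 probe the differences were -1.05 ± 0.55 and -0.93 ± 0.55. There aged IFE (-0.03) and aged total epidermis (0.05) lay above unplucked control HFSCs (-0.08). Ccnd1 stayed between 2.79 and 3.69 in the epidermal samples and differed by 0.51 ± 0.36 in IFE and -0.08 ± 0.36 in total epidermis.

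E2f1 was -1.80 and -2.14 in young and aged HFSCs, 0.10 and 0.61 in IFE, and -0.51 and 0.05 in total epidermis. Its difference was 2.32 ± 0.35 in IFE (5.01-fold; limma, adjusted p = 0.0413) and 1.74 ± 0.35 in total epidermis (3.33-fold; adjusted p = 0.0806). The call in IFE was lost with quantile scaling and without the filter (adjusted p = 0.0121 to 0.0783 over the alternatives). The epidermal levels of E2f1 lay under those of all 4 plucked HFSC samples. Rbl1 read -1.26 and -1.33 in HFSCs, 0.02 and 0.67 in IFE, and 0.27 and 0.53 in total epidermis. Its differences of 1.64 ± 0.31 and 1.70 ± 0.31 did not pass (limma, adjusted p = 0.065 and 0.0656), but did in both under normexp with quantile normalization and when genes had to be above background on every array (0.0259 to 0.226 over the alternatives in IFE). E2f2 was 0.71 and 1.05 in IFE against 0.31 and -1.62 in HFSCs, so that its difference of 1.53 ± 0.59 came mostly from the aged pair (2.66, against 0.40 in the young pair).

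**Figure D5:**
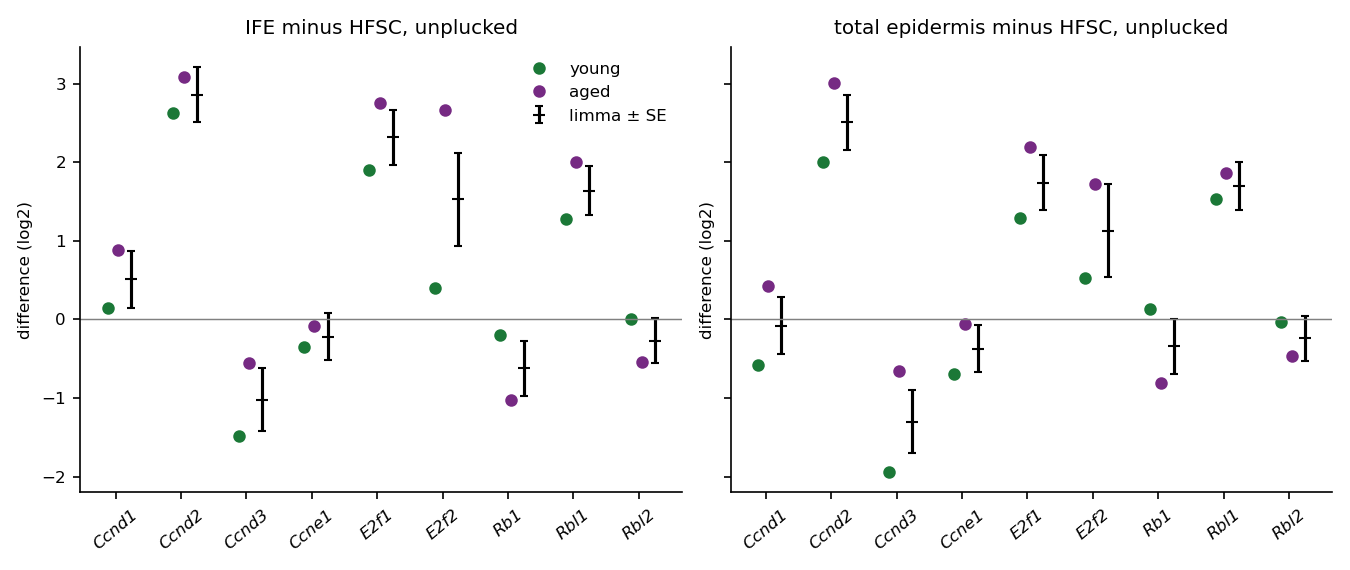
IFE (left) and total epidermis (right) minus HFSCs, unplucked (y axis, log2 difference), for the 9 genes tested, with points for the young and the aged pair and the limma estimate with its SE in black. Ccnd2 is highest in both panels (2.86 and 2.51) and Ccnd3 lowest (-1.02 and -1.30).

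The other pocket proteins, and Ccne1 at its brightest probe, differed little between populations. Rb1 differed by -0.62 ± 0.35 in IFE and -0.34 ± 0.35 in total epidermis, Rbl2 by -0.27 ± 0.29 and -0.24 ± 0.29, and Ccne1 by -0.22 ± 0.30 and -0.37 ± 0.30. At the dimmer Ccne1 probe, measured levels were higher than in HFSCs by 2.45 (young) and 1.89 (aged) in IFE, and by 2.56 and 2.23 in total epidermis. Of these arrays, only young total epidermis was well above background there (-3.33). Among the pathway genes, 2 rose in IFE, both S-phase targets: Orc1, at least 3.70-fold, and Gins1, 4.15-fold. In total epidermis 6 rose: Orc1, Gins1, E2f8, the mitotic kinase gene Aurka and the CDK inhibitors Cdkn1a (5.22-fold) and Cdkn2b (7.10-fold). None fell in either. Orc1 and E2f8 were not well above background in unplucked HFSCs, and entered these fits through the epidermal arrays alone. Those of them not named for plucking were chosen after their values were seen. T cell markers were higher in total epidermis: 3 of them averaged 0.20 to 0.77 there and at most -2.81 on the other arrays. The 5 myeloid and Langerhans cell markers were higher there as well, at -1.54 to -0.78 against -3.42 to -2.58 elsewhere. The part of these cells in the values of total epidermis was not tested; IFE, where Ccnd2 and E2f1 passed, had T cell markers at -3.63 to -3.27.

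Age in these epidermal samples moved none of the 9 genes past the threshold (limma, 0% of 22825 genes, with 1488 at an unadjusted p under 0.05), nor was any of them 2-fold apart in IFE, where 12.1% of all genes were, or in total epidermis, where 12.1% were too. E2f1 differed most, by 0.53 ± 0.24 (adjusted p = 0.777), higher in aged cells in both pairs. E2f1 and Rbl1 were higher with age in both epidermal pairs and lower in both HFSC pairs, where 5.2% of all genes were. For Rbl1 the unplucked HFSC pair differed by only -0.06. The difference between populations did not pass for E2f1 (0.92 ± 0.39, limma, adjusted p = 0.954 over 24821 genes).

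Across the 12 arrays the genes fell into loose company, given here as description since the arrays share slides and cell types. E2f1 followed Rbl1 (r = 0.85) and E2f2 (r = 0.74), while Rbl1 and Rbl2 (r = -0.70) and Ccnd2 and Ccnd3 (r = -0.72) ran opposite. Among 16024 genes well above background on all 12 arrays, the pattern most like E2f1 was that of Cenpk, which encodes a centromere protein (r = 0.97), and for Rbl1 that of Prc1, a regulator of cytokinesis (r = 0.963). Nearest to Ccnd2 were the growth factor receptor gene Fgfr2 (r = 0.96), the collagen gene Col16a1 (r = 0.953) and the transcription factor gene Klf5 (r = 0.936). Ccnd3 was nearest to Plac9a (r = 0.966), Crip1 (r = 0.964) and the thioredoxin gene Txn1 (r = 0.963).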

How the data were processed

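The spot intensities deposited by the authors came, per the file headers, from Agilent Feature Extraction 10.7.3.1 with the protocol GE1_107_Sep09, which subtracts background before scaling. The log2 values also deposited by the authors followed these spot intensities (r of at least 0.9999) after centring on each probe; how they were made is not given in the sources used here, and their column medians ran from -0.2 to 0.17. They were used as an alternative only. Per the labels' protocols, nanogram amounts of RNA were amplified before labelling, which can add spread for scarce transcripts. Control spots and 129 to 269 outlier spots per array were dropped, and none was saturated. The log2 of the processed intensity was set relative to the array's 75th percentile, and spots of a probe were averaged. Probes were named through RefSeq for 28026 of 55681, and otherwise as in the array files. The number of arrays limits the precision.

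A gene entered a fit if at least 2 of its arrays were well above background, and was tested with limma 3.58.1 in R 4.3.3 (lmFit, eBayes, Benjamini-Hochberg threshold 0.05), with data.table (version 1.17.8); figures used matplotlib 3.10.9 and Python 3.11.15. Mouse type and plucking were fitted over the 8 HFSC arrays (3 residual degrees of freedom), population and age over 6 arrays (2), and age in epidermis over 4 (1). Single pairs were counted at 2-fold without a test, with the brighter array well above background. On simulated data for the plucking fit, 118 of 200 genes changed by 4 log2 units were called among 25428. The 10 genes were named by a fixed rule, pathway genes when past the threshold or at the end of their list in the plucking fit, and likeness by the 3 highest r. Members and lists were chosen with earlier results of these data known. Alternatives were normexp with an offset of 50 and quantile normalization, quantile scaling, other filters, probe averages, the authors' log2 values, left-out pairs and single slides; tests of every probe and of age by population were added after seeing the data.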

Additional observations from a re-analysis of the deposited data

Results flagged for a closer look

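At the brightest probe, the plucking difference of 3 genes had the same sign in the young, aged and control pairs of HFSCs and the other sign in the cKO pair. Of all genes, 11.2% did so. For Ccnd1 the differences were small, at 0.12 in the young and -0.07 in the cKO pair. The dimmer Ccne1 probe gave 0.26 in the cKO pair, with neither array well above background. The cKO pair minus the mean of the other 3 was -0.69 for Ccnd1, -2.18 for Ccne1 at its brightest probe and 1.67 for Rbl2. The difference of the cKO pair alone was not tested; the fit that joined aged and cKO cells called none of the 3 (limma, adjusted p = 0.999 for each).

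The age difference in epidermis minus that in HFSCs had opposite signs in every pair of each for 3 genes. The epidermal minus HFSC value was 0.92 for E2f1 and 0.73 for Rbl1, higher with age in epidermis and lower in HFSCs, as for 5.2% of all genes. For Rbl1 the unplucked HFSC pair differed by only -0.06. Rbl2 went the other way round, at -0.56, and the share of all genes in that direction was not counted. None passed (limma, adjusted p = 0.954, 0.972 and 0.972).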

How the results depend on the processing

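Pairing by replicate number was not possible because each group holds 1 array, so that groups share fewer than 2 replicate numbers. The plucking fit paired plucked and unplucked arrays by mouse type instead. For plucking, where none of the 10 genes was called, 2 were (E2f1 and Rbl1) under normexp with quantile normalization, 1 (Rbl1) when genes had to be above background on every array and 1 (Rbl1) with probes averaged. All-gene calls were 127, against 1120, 703, 221 and, with no filter, 22, and 0 without any 1 pair or on slide 1 or 2 alone. Rises made up 78.7% of calls and 64.8% under normexp with quantile normalization. In IFE, 1 gene in place of 2 was called with quantile scaling and 1 (Ccnd2 each time) with no filter, and 3 (with Rbl1) under normexp with quantile normalization or with every array above background; 605 of all genes passed without a filter, against 1134. In total epidermis, 2 were called under normexp with quantile normalization, 3 with every array above background and 0 with no filter, where 327 of all genes passed against 933. Dropping the filter moved the median of all genes by -0.14 for plucking and 0.12 for age.

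Among values of single genes, 501 kept direction and call, 48 moved, 9 became calls, 3 lost theirs and 19 changed sign. For plucking the last were Ccne1 at -0.04 under normexp with quantile normalization, -0.50 on slide 2 and -0.21 to 0.58 over left-out pairs, and Ccnd3 at 0.01 with probes averaged, 0.01 on slide 2, 0.08 at its other probe and -0.18 to 0.10 over left-out pairs. For age they were Rb1 at 0.02 and Rbl2 at -0.07 under normexp with quantile normalization, and Rb1 at 0.03 with quantile scaling. For cKO they were Ccne1 at -0.65 with probes averaged and -2.17 at its other probe, and Rbl1 at -0.97 at its other probe. For the difference of plucking responses they were E2f1 at 0.07 with quantile scaling and Rbl1 at 0.09 with probes averaged, and for total epidermis Ccnd1 at 0.11 under normexp with quantile normalization and 0.10 with quantile scaling. The cause was not tested.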
